A study of Mus musculus with 12 samples.

Results

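CpG island shores are the strips of DNA that flank CpG islands, and their methylation was followed here from stem cells to germ cells and germ cell-like cells of the mouse. The shores were the regions labelled as such in the deposited levels that lie on chromosomes 1 to 19 and had a level in all 12 libraries. Of 18283 shores with a level in at least 1 library, 17840 lay on these chromosomes and 14014 had a level in all 12, while 3826 lacked one in at least 1 library. Each shore was 2000 or 2001 bp long and carried 1 value per library, the share of its CpG cytosines read as methylated, printed here as a percentage. The shores made up 14014 of the 133311 annotated features with a level in every library. A shore was matched to the island whose start or end it touched. 13004 shores touched a listed island, 12527 of them an island with a level in all 12 libraries (9405 islands), and 1010 touched none.

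The assay was reduced representation bisulfite sequencing, in which the enzyme MspI cuts at CCGG and so enriches for CpG-rich fragments. The 6 groups held 2 libraries each, which the study describes as biological replicates. Female embryonic stem cells (ESCs) came from fertilized embryos and parthenogenetic stem cells (pESCs) from oocytes activated with strontium, so that pESCs carry no paternal genome. Both kinds of line carried a β-Actin-GFP transgene on a C57BL6 background and grew in serum and LIF on feeder cells, then in medium with the inhibitor combination t2iL. Primordial germ cell-like cells (PGCLCs) were made from each by 2 days of conversion to epiblast-like cells and 4 days of germ cell induction, and are called ESC-PGCLCs and pESC-PGCLCs. Primordial germ cells (PGCs) came from female embryos of embryonic days 9.5 and 12.5 (E9.5 and E12.5), and germ cells were isolated by the surface markers SSEA1 and CD61 or by SSEA1 beads alone. The labels of all 12 libraries, PGCs included, give the strain as C57BL6. Bisulfite levels hold no expression values, so the labelled cell types could not be checked against marker genes, and a changed level in a cell population cannot be told apart from a changed mix of cells.

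CpG islands are stretches with many CpG sites that often hold gene starts and mostly lack methylation, whereas most CpG sites elsewhere are methylated. Shores lie between these states, and in other tissues they are known as places where methylation varies between cell types. PGCs lose most of the methylation of the epiblast while they migrate to and colonise the gonad, and stem cells held in inhibitor medium have low methylation. Parthenogenetic cells carry maternal imprints on both chromosome sets, since sperm-derived chromosomes are absent.

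The shores differ from islands in sequence. A shore held a median of 35 CpG sites and a median observed to expected CpG ratio of 0.301. The stretches below, 150 bases each, are the window of the shore with the most CpG sites that also holds a CCGG and lies outside annotated untranslated regions, on the plus strand of GRCm38, with every CpG in capitals. They show shores on which the comparisons below turn: a loss between E9.5 and E12.5 (F2r), a gain (Parm1), a gain on germ cell induction (Kansl2), a level lower in all germ cells than in stem cells (Lhx9), a shore that stayed low beside a methylated island (Ankrd9), and an imprinted shore (Mest).
F2r, chr13:95616536-95616685: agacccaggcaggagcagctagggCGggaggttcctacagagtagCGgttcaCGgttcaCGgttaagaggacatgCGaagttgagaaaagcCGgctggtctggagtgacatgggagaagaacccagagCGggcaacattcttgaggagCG
Parm1, chr5:91516165-91516314: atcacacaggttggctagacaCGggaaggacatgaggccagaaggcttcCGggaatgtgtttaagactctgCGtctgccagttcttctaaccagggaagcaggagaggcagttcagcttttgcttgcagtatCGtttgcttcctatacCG
Kansl2, chr15:98531652-98531801: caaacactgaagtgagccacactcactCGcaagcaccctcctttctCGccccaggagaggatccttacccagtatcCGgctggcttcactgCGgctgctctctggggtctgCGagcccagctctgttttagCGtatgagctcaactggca
Lhx9, chr1:138839990-138840139: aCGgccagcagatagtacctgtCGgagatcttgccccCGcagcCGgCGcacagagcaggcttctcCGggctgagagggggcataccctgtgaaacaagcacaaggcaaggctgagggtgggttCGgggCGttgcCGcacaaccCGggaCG
Ankrd9, chr12:110979041-110979190: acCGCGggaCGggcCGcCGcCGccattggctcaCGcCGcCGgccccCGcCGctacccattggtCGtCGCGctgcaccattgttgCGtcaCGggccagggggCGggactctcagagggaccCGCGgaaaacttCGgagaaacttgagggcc
Mest, chr6:30738717-30738866: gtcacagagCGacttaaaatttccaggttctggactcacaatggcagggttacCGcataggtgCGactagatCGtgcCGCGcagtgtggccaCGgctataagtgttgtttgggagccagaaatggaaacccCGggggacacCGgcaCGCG

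The shores shown held from 26 to 112 CpG sites, within a range of 7 to 233 over all shores. The F2r shore held 42 CpG sites and 3 CCGG sites in all, the Parm1 shore 26 and 3, the Kansl2 shore 45 and 2, and the Lhx9 shore 54 and 8. The Ankrd9 shore held 112 CpG sites and 15 CCGG sites, and 32.3% of its length overlapped another listed island. The Mest shore held 35 and 4. With few MspI sites, the value of a shore rests on a small part of its length.

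Most shores were near 0, and a smaller share was highly methylated. The mean shore level was 13.8% and 10.7% in the ESC libraries, 12.5% and 12.2% in pESCs, 22.4% and 22.2% in E9.5 PGCs, 14.2% and 14.5% in E12.5 PGCs, 17.5% and 17.4% in PGCLCs from ESCs, and 16.2% and 15.9% in those from pESCs (replicates 1 and 2). E9.5 PGC libraries were the highest, PGCLC libraries lay between the PGC stages, and the 2 ESC libraries enclosed both pESC libraries. The median shore was far lower, at 6.72% in E9.5 PGCs and 5.09% at E12.5, 4.60% in ESCs, 4.75% in pESCs, 6.0% in PGCLCs from ESCs, and 5.90% in those from pESCs. The groups differed mostly in the upper tail. Shores over 50% made up 21.1% and 20.8% of all shores in the E9.5 PGC libraries and 5.83% and 6.12% in the E12.5 PGC libraries. They made up 13.2% in both ESC-PGCLC libraries, 9.76% and 9.38% in pESC-PGCLCs, 8.23% and 2.08% in ESCs, and 5.61% and 3.58% in pESCs. 3671 shores (26.2%) stayed under 5% in all 12 libraries, 6688 (47.7%) under 10%, and 137 were over 50% in all 12.

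The ESC libraries were the least alike. Their shores differed by 4.88 points on average and by at least 10 points at 17.8% of shores, against 4.29% in pESCs and 1.86% to 2.70% in the other groups. ESC replicate 1 was the higher by 3.08 points on average, and comparisons with ESCs are read against that gap. No pair of replicates shared the same value at more than 0.321% of shores. The read depth behind each level is unknown.

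Whether shores follow their islands was asked by subtracting the level of the touching island from that of the shore, a difference called the gap and given in percentage points. The mean gap was positive in every library. It was 8.60 and 6.35 points in ESCs, 7.83 and 7.37 in pESCs, 13.17 and 13.01 in E9.5 PGCs, 7.90 and 7.99 in E12.5 PGCs, 10.12 and 10.02 in PGCLCs from ESCs, and 9.35 and 9.13 in those from pESCs. The shore was above its island in 80.9% to 83.8% of pairs. In E9.5 PGCs 3857 and 3784 shores were at least 10 points above their island, and 336 and 338 at least 10 points below it.

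The gap depended on where the island lay. For the 8156 shores beside islands at a gene start the mean was 17.7% ± 0.152 (SD, n = 2) in E9.5 PGCs and 11.4% ± 0.169 (SD, n = 2) in E12.5 PGCs, while the islands were at 2.61% and 2.33%. Beside the islands inside a gene (3686 shores) the shore mean was 27.5% ± 0.126 and then 17.8% ± 0.244 (SD, n = 2), and the islands themselves went from 18.5% to 12.1%. Beside the islands between genes (685 shores) the shores were at 17.0% and 11.1% and the islands at 6.02% and 4.49%. The E12.5 level was 0.644, 0.647 and 0.651 times the E9.5 level of the shores in the order given, although the starting levels differed. The mean gap in E9.5 PGCs was 15.1 points at gene starts, 11.0 points between genes and 8.98 points inside genes.

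**Figure D1:**
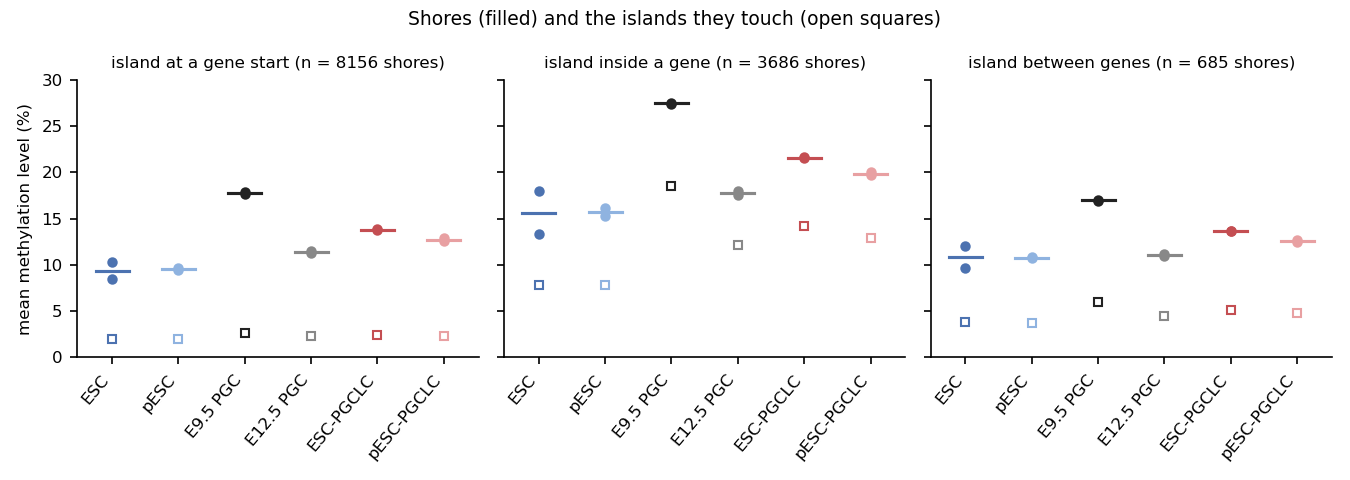
Mean methylation (%) of shores and of the islands they touch, by group, in 3 panels for islands at a gene start, inside a gene and between genes. Filled points are the shore means of single libraries, bars the mean of the 2 libraries and open squares the island means; shores lie above islands in every group and panel, and E9.5 PGCs are the highest.

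Where the island itself was methylated the order turned. Beside the 719 shores whose island was at 50% or more in E9.5 PGC replicate 1, the shore mean in E9.5 PGCs was 70.3% and the island mean 79.8%, a gap of -9.47 points. The gap of these pairs was -5.17 points in E12.5 PGCs and 5.74 points in ESCs, where the shores were at 34.9% and the islands at 29.2%. Beside the 10901 shores whose island was under 5%, the islands stayed between 2.04% and 2.18% in every group, and the shores ranged from 9.32% in ESCs to 16.3% in E9.5 PGCs. These pairs were grouped by a value of E9.5 PGCs, and the values are a description.

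The first comparison asked what shores lose as PGCs reach the gonad, from E9.5 to E12.5. The mean shore level was lower at E12.5 by 7.92 points, at 0.644 of the E9.5 level, and the nearest replicates of the groups were 7.70 points apart. An exact two-sided permutation test of these means gave p = 0.333, the smallest value that 2 libraries against 2 allow, as it did for all mean comparisons below except that of pESCs with ESCs. Single shores were tested with limma across all features of all classes on the log odds of the level. The calls required an adjusted p under 0.05 together with means at least 10 points apart. Between E9.5 and E12.5 PGCs 4211 of 14014 shores (30%) fell and 9 rose, against 49.6% and 0.035% of all features tested. Of 13436 islands 845 (6.29%) fell. The median fall of a called shore was 22.6 points. Centring each library on its own median over the features of the fit turned the split to 5781 higher and 1203 lower. Over the features with a level in all 12 libraries the medians differed by -15.0 points. The fit held more features, so the shift removed there was not exactly this. Shores near 0 cannot fall by such a shift, so centring makes an unchanged one higher by its size. The turned split thus does not show that shores gained methylation. The 9 rises numbered 17 without either E9.5 PGC library and 14 without E12.5 PGC replicate 1.

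The loss was then set against the level at E9.5. Shores were binned by their level in E9.5 PGC replicate 1, so that replicate 2 gives the starting level from a library not used for the binning. The 5873 shores under 5% had 3.27% in replicate 2 and 2.98% at E12.5, and none was called lower. Since a call needs means 10 points apart, the absence of calls there follows from the threshold, as do the few in the next bin. From 5% to 10% the 2198 shores went from 6.62% to 5.16%, and 1 was called. From 20% to 40% the 1195 shores went from 28.6% to 16.0%, and 821 (68.7%) were called. From 60% to 80% the 1720 shores went from 70.0% to 44.6%, and 1665 (96.8%) were called. The 552 shores at 80% or more went from 83.7% to 54.7%, with 538 (97.5%) called. The loss in points grew with the level, while the share of the E9.5 level left at E12.5 stayed between 56.0% and 65.3% in all bins above 10%. The E12.5 mean of the highest bin was still over 50%.

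**Figure D2:**
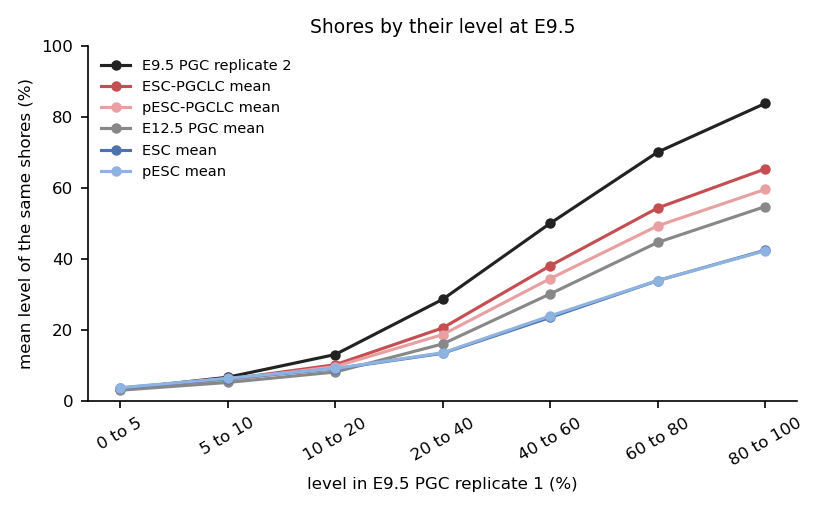
Mean methylation (%) of shores in each group, with shores binned by their level in E9.5 PGC replicate 1 (horizontal axis, %). In the bin from 60% to 80% the E12.5 PGC mean was 44.6%, the ESC-PGCLC mean 54.3%, the pESC-PGCLC mean 49.2% and the ESC mean 33.8%, and in the bin under 5% all lay near 3%.

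The 3 largest falls ended at E12.5 levels near or under those of stem cells. F2r encodes a thrombin receptor, and the shore within its intron, on the gene-body side of the island (chromosome 13, 95615985-95617985, stretch printed above), stood at 72.4% and 79.4% in E9.5 PGCs. It was at 15.4% and 13.7% in E12.5 PGCs, 51.5% and 52.7% in ESC-PGCLCs, 40.1% and 41.4% in pESC-PGCLCs, 56.5% and 19.9% in ESCs and 41.8% and 34.5% in pESCs. E12.5 PGC libraries were the lowest of all 12 and E9.5 PGC libraries the highest, and the fall was 61.4 points (limma adjusted p = 7.47e-05). The island at the F2r start stayed between 0.892% and 1.92% in all libraries.

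At Sik1, a salt-inducible kinase, the upstream shore (chromosome 17, 31856152-31858153, between genes), was at 73.6% and 74.4% in E9.5 PGCs and 18.1% and 18.7% in E12.5 PGCs. It was at 51.5% and 56.7% in PGCLCs from ESCs, and 37.8% and 39.7% in those from pESCs, and at 28.6%, 12.7%, 24.2% and 20.5% in the stem cell libraries. The fall was 55.6 points (limma adjusted p = 7.47e-05), and PGCLCs lay between the PGC stages without overlap. A shore within an intron of 1700028I16Rik (chromosome 10, 82812375-82814376) went from 70.5% in both E9.5 PGC libraries to 11.0% and 16.4%, a fall of 56.8 points (limma adjusted p = 8.42e-05).

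Of the 9 shores that rose, 3 are given by the naming rule. The shore upstream of Parm1, a mucin-like protein gene (chromosome 5, 91515612-91517612, between genes), had 3.57% and 9.38% in E9.5 PGCs and 45.7% and 41.6% in E12.5 PGCs. It also had 34.7% and 51.0% in PGCLCs from ESCs, and 17.2% and 44.4% in those from pESCs, against 3.33% to 9.38% in the stem cells. The rise was 37.2 points (limma adjusted p = 0.00671), and its island stayed at 1.83% or less in all libraries. A shore over an exon of Pcdhgb7, a clustered protocadherin gene (chromosome 18, 37752055-37754056), had 25% and 39.1% in E9.5 PGCs and 46.4% and 50.0% in E12.5 PGCs, with an adjusted p of 0.0395 by limma. Without E9.5 PGC replicate 1 the rise at Pcdhgb7 was 9.06 points (limma adjusted p = 0.135), and the call was also lost without either E12.5 PGC or either ESC-PGCLC library, with all 12 libraries (limma adjusted p = 0.0611) and with adjustment over shores alone (limma adjusted p = 0.0564). PGCLCs did not share that level, with 4.43%, 4.69%, 7.59% and 10.8%. A shore over an exon of the transcript Gm44573 (chromosome 7, 39542410-39544410) went from 6.67% and 7.32% to 20% and 24.4%, with an adjusted p of 0.00018 by limma.

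The gap itself was then tested, which asks whether a shore changed by another amount than its island. From E9.5 to E12.5 the gap narrowed at 2587 of 12527 matched shores and widened at 165, against 20.4% and 1.3% of all matched shores tested, the X chromosome included. Where it narrowed the median change of the shore was -21.7 points and that of the island -0.106 points, and the shore moved more in 2582 of 2587 pairs. Most matched shores (10901) lay beside islands under 5% in E9.5 PGC replicate 1. Such islands have no room to fall with their shores, so a falling shore narrows the gap there. Where it widened the island moved more in all but 5 pairs, with a median change of -31.5 points against -14.6 points in the shore, and 144 of the 165 lay beside islands inside genes.

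The widest change was at Ankrd9, an ankyrin repeat gene (chromosome 12, shore 110977510-110979511). The shore stayed between 1.23% and 2.89% in all 12 libraries. Its island had 86.4% and 84.9% in E9.5 PGCs, 41.1% and 41.6% in E12.5 PGCs, 55.6% and 43.8% in PGCLCs from ESCs, and 57.6% and 57.9% in those from pESCs, and between 14.3% and 40% in stem cells. The gap thus moved by 44.0 points (limma adjusted p = 0.000402). Rbm15b, which encodes an RNA-binding protein, had the same arrangement (chromosome 9, 106885275-106887276). Its shore was at 5.52% and 4.91% in E9.5 PGCs and at 2.27% and 2.66% in E12.5 PGCs, and its island at 58.6% and 56.3% and then at 11.6% and 14.7% (limma adjusted p = 5.87e-05). Other listed islands covered 82.2% of the Rbm15b shore and 32.3% of the Ankrd9 shore.

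PGCLCs were compared with PGCs of both stages to place the cultured cells on the path of loss. These comparisons share libraries with each other and with the first one, so their values are set side by side. The mean shore level of ESC-PGCLCs was 4.83 points under that of E9.5 PGCs and 3.09 points over that of E12.5 PGCs. That of pESC-PGCLCs was 6.22 points under and 1.70 points over. No replicates overlapped. Against E9.5 PGCs, 3064 shores (21.9%) were lower and 35 higher in ESC-PGCLCs, where 29.6% and 0.168% of all features were called. In pESC-PGCLCs 3722 shores (26.6%) were lower and 27 higher, where 40.2% and 0.127% of features were called. Islands were lower in 745 (5.54%) and 838 (6.24%) cases. The median size of the called falls was 15.8 points in ESC-PGCLCs and 18.99 points in pESC-PGCLCs.

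Against E12.5 PGCs, 1583 shores (11.3%) were higher and 80 lower in ESC-PGCLCs, with 22.2% and 0.523% of features called. In pESC-PGCLCs 466 shores (3.33%) were higher and 22 lower, with 6.81% and 0.287% of features called. This last count rested on single libraries. It was 278 without either E9.5 PGC library, 60 without E12.5 PGC replicate 1, 125 without E12.5 PGC replicate 2, 13 without pESC-PGCLC replicate 1 and 27 without pESC-PGCLC replicate 2, in place of 488 in both directions. Centring the libraries gave 2636 higher and 545 lower for ESC-PGCLCs against E9.5 PGCs, and 4262 and 1035 for pESC-PGCLCs. Against E12.5 PGCs it gave 328 and 183, and 47 and 28. Over the features with a level in all 12 libraries the medians differed by -9.85, -11.6, 5.20 and 3.46 points in that order. Against E9.5 PGCs the limit given above holds here too, since shores near 0 cannot fall by such shifts.

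**Figure D3:**
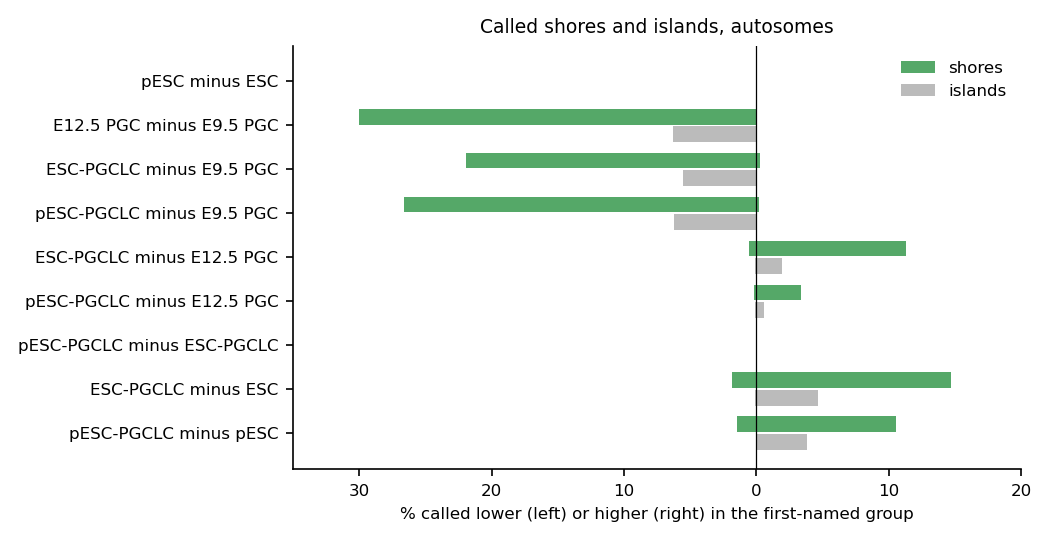
Share (%) of shores (green) and of islands (grey) called higher or lower by limma in each comparison. From E9.5 to E12.5 PGCs 30% of shores and 6.29% of islands were called lower.

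The gap to the island narrowed at 1662 shores and widened at 141 in ESC-PGCLCs against E9.5 PGCs (12.8% and 1.12% of all matched shores). In pESC-PGCLCs it narrowed at 2136 and widened at 184 (16.6% and 1.48%). The 3 largest narrowings in ESC-PGCLCs lay at BC030867, Usp21 and Pik3r4, and those at Pik3r4 and Usp21 were the largest in pESC-PGCLCs as well, all at gene starts with islands at 4.66% or less in every library.

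Of the 3 largest widenings in ESC-PGCLCs, those at Parm1 and Ankrd9 were described above. At the largest, Slc7a2, a cationic amino acid transporter gene (chromosome 8, shore 40896980-40898980), the island had 92.6% and 80% in E9.5 PGCs and 37.7% and 28.5% in ESC-PGCLCs. The Slc7a2 shore went from 62.2% and 66.2% to 45.8% and 50.4%, and the gap moved by 37.0 points (limma adjusted p = 0.0221). The adjusted p by limma was 0.0924 without E9.5 PGC replicate 1 and 0.103 without ESC-PGCLC replicate 2. The Parm1 gap call in ESC-PGCLCs was lost when any 1 E9.5 PGC, E12.5 PGC or ESC-PGCLC library was left out. The Parm1 gap then moved by 28.5 to 44.3 points. In pESC-PGCLCs the 3 largest widenings lay inside Gpatch2l, Crlf2 and Dapk3. At Crlf2, a cytokine receptor gene (chromosome 5, 109557155-109559156), the shore stayed between 0.833% and 6.56% in all libraries, while the island had 79.2% and 77.1% in E9.5 PGCs, 45.7% and 43.6% in pESC-PGCLCs and at most 2.62% in stem cells. At Dapk3, a protein kinase gene (chromosome 10, 81190475-81192476), the shore stayed at 2.33% or less and the island went from 76.4% in both E9.5 PGC libraries to 48.4% and 44.5%. At Gpatch2l (chromosome 12, 86242151-86244151) the island went from 87.4% and 88.3% to 47% and 44.1%, and the shore from 34.1% and 23.0% to 20.4% and 17.3%. In these 3 it was the island that changed more.

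Several shores were lower in PGCLCs than in PGCs of either stage. The shore at Pik3r4, which encodes the regulatory subunit of a phosphatidylinositol 3-kinase of autophagy (chromosome 9, 105643330-105645331, over an exon), had 82.7% and 81.6% in E9.5 PGCs and 55.3% and 58.1% in E12.5 PGCs. It had 19.5% and 29.8% in ESC-PGCLCs, 23.0% and 21.5% in pESC-PGCLCs and 5.31% to 9.03% in the stem cells. All 4 PGCLC libraries lay under both PGC stages and over the stem cells. The pESC-PGCLC level was 59.9 points under that of E9.5 PGCs (limma adjusted p = 0.000262) and 34.5 points under that of E12.5 PGCs (limma adjusted p = 0.0139). The call against E12.5 PGCs needed both libraries of each group. Without 1 of them the difference was from -35.9 to -33.1 points.

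The shore upstream of the deubiquitinase gene Usp21 (chromosome 1, 171288060-171290061, over an exon of Ufc1) had 74.9% and 76.2% in E9.5 PGCs and 49.6% and 45.4% in E12.5 PGCs. It had 18.4% and 15.0% in ESC-PGCLCs, 26.9% and 19.5% in pESC-PGCLCs, and 8.04% to 14.6% in stem cells, and again all PGCLC libraries lay between stem cells and PGCs. The shore over an exon of Repin1 near the Zfp775 start (chromosome 6, 48597805-48599806) had 74.8% and 78.3% in E9.5 PGCs and 15.6% and 18.9% in ESC-PGCLCs, a difference of -59.3 points. Its level in pESC-PGCLCs was 20.7% and 26.7%. Its island kept 66.4% and 69.0% in ESC-PGCLCs. At Apold1, a gene of an apolipoprotein L domain protein (chromosome 6, 134981535-134983535), the levels were 52.3% and 56.2% in E12.5 PGCs, 8.93% and 7.81% in PGCLCs from ESCs, and 19.2% and 8.89% in those from pESCs.

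The shore at the starts of Nubp2 and Spsb3 (chromosome 17, 24887103-24889104, over exons of Eme2 and Spsb3) had 86.6% and 80% in E9.5 PGCs and 74.3% and 60.7% in E12.5 PGCs. It had 8.45% and 42.7% in PGCLCs from ESCs, 21.1% and 28.6% in those from pESCs and 1.84% to 8.56% in stem cells. The pESC-PGCLC level was 58.5 points lower than that of E9.5 PGCs (limma adjusted p = 0.0131), with an adjusted p by limma of 0.0641 without E9.5 PGC replicate 1 and 0.0679 without pESC-PGCLC replicate 1. Upstream of Ankhd1, an ankyrin repeat gene, the shore (chromosome 18, 36557432-36559432, between genes) had 7.60% and 8.33% in ESC-PGCLCs and 35.8% to 69.2% in the other 10 libraries. The ESC-PGCLC level was 49.9 points lower than that of E12.5 PGCs (limma adjusted p = 0.0052).

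Other shores were higher in PGCLCs than in PGCs, and of these the Lhx9, Gm10110 and Rnf223 shores and one on chromosome 9 had their highest values in stem cells. The shore over an exon of Lhx9, a LIM homeobox gene of limb and gonad (chromosome 1, 138839497-138841497, stretch printed above), had 76.6%, 67.1%, 76.2% and 70.0% in the stem cell libraries. It had 6.22% and 2.27% in E9.5 PGCs, 2.61% and 3.33% in E12.5 PGCs, 30.7% and 22.3% in PGCLCs from ESCs, and 41.2% and 35.4% in those from pESCs. The PGCLC libraries lay between and overlapped neither. Its island was at 33.5% to 70.0% in stem cells, under 2.66% in PGCs and at 8.26% to 12.4% in PGCLCs. The pESC-PGCLC shore was 34.0 points above E9.5 PGCs (limma adjusted p = 0.00081). An intergenic shore on chromosome 9 (89066900-89068901) behaved alike, with 70.6% to 81.7% in stem cells, 8.08% to 20% in PGCs and 46.6% to 53.5% in PGCLCs. A shore over an exon of Gm10110 (chromosome 14, 89899068-89901069) had 52.5% to 68.0% in stem cells, 0% to 3.33% in PGCs and 25.4% to 56.3% in PGCLCs. The shore of Rnf223, a RING finger gene (chromosome 4, 156135084-156137084, between genes), had 73.6% to 78.1% in stem cells, 49.2% and 52.3% in E9.5 PGCs, 22.4% and 25.4% in E12.5 PGCs and 57.97% to 64.8% in PGCLCs. Its pESC-PGCLC level was 36.6 points above that of E12.5 PGCs (limma adjusted p = 0.00608, and 0.0581 without pESC-PGCLC replicate 1).

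At Tbc1d8 and Rap1gap the ESC-PGCLCs were the highest group. The shore upstream of Tbc1d8, a gene of a TBC domain protein (chromosome 1, 39478997-39480998, between genes), had 69.6% and 81.3% in PGCLCs from ESCs, and 46.8% and 44.3% in those from pESCs. It had 52.2% and 56.6% in E9.5 PGCs, 28.7% and 34.5% in E12.5 PGCs and 18.2% to 39.1% in stem cells, and the difference between ESC-PGCLCs and E12.5 PGCs was 43.8 points (limma adjusted p = 0.00324). The shore upstream of Rap1gap, a GTPase-activating protein gene (chromosome 4, 137705347-137707347, over an exon of Rap1gapos), had 80.1% and 95.7% in PGCLCs from ESCs, and 38.97% and 52.5% in those from pESCs. It had 70.2% and 76.3% in E9.5 PGCs, 38.7% and 48.2% in E12.5 PGCs and 37.2% to 46.1% in stem cells. Its difference between ESC-PGCLCs and E12.5 PGCs was 44.4 points (limma adjusted p = 0.014), with an adjusted p by limma of 0.0717 without E12.5 PGC replicate 1.

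**Figure D4:**
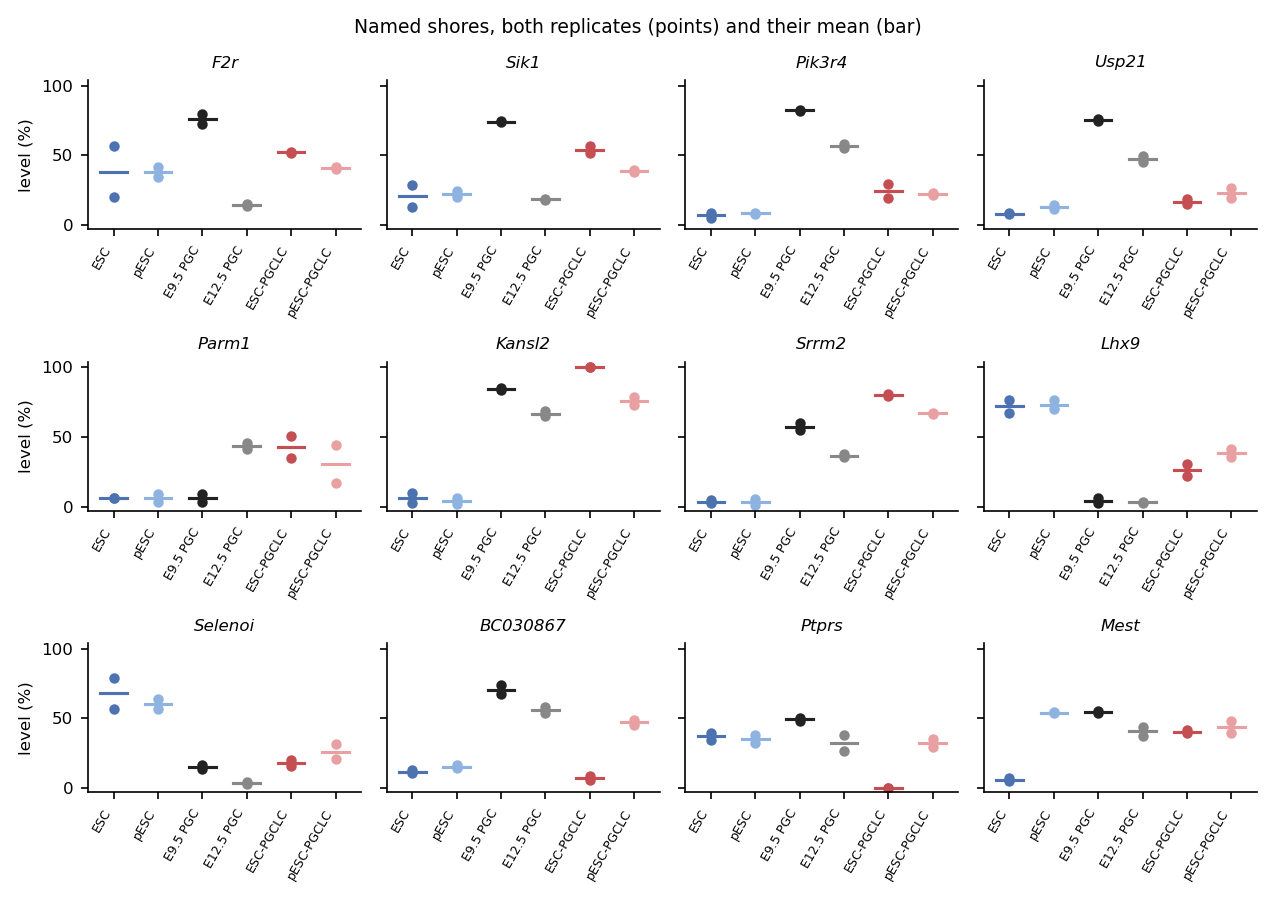
Methylation (%) of named shores in each of the 12 libraries, 1 panel per shore, with groups on the horizontal axis and 1 point per library. The F2r shore is lowest in E12.5 PGCs (15.4% and 13.7%), the Kansl2 shore reaches 100% in both ESC-PGCLC libraries, and the Lhx9 shore is lowest in PGCs.

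What induction changes was asked by comparing PGCLCs with the stem cells they came from. ESC-PGCLCs exceeded ESCs in mean shore level by 5.17 points, or 1.42 times, and pESC-PGCLCs exceeded pESCs by 3.67 points, or 1.30 times. Replicates did not overlap in either comparison. In ESC-PGCLCs 2057 shores (14.7%) rose and 259 (1.85%) fell, against 13.7% and 0.899% of all features. In pESC-PGCLCs 1467 (10.5%) rose and 207 (1.48%) fell, against 8.91% and 0.746% of features. Among islands 623 rose and 17 fell with induction from ESCs, and 510 rose and 8 fell from pESCs. The median rise of a called shore was 26.3 points from ESCs and 24.5 points from pESCs, and the median fall 18.1 and 17.6 points. The total of 1674 calls in pESC-PGCLCs was 1107 without pESC replicate 1, 1014 without pESC-PGCLC replicate 1 and 1038 without pESC-PGCLC replicate 2. Counts of falls moved more. The 259 falls from ESCs numbered 165 without ESC replicate 1, 539 without ESC replicate 2, 127 without ESC-PGCLC replicate 1 and 122 without ESC-PGCLC replicate 2, and the rises 3097 without ESC replicate 1. The 207 falls from pESCs numbered 61 without pESC replicate 1, 115 without pESC replicate 2, 73 without pESC-PGCLC replicate 1, 58 without pESC-PGCLC replicate 2 and 315 without either ESC library, and the rises 941 without pESC-PGCLC replicate 1. Centring turned the split to 956 higher and 6114 lower from ESCs, and 809 and 3792 from pESCs. The medians of the features with a level in all 12 libraries differed by 12.5 and 9.77 points. Centring makes an unchanged shore lower by such a shift, so the turned split does not show that shores lost methylation.

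At most shores whose gap widened on induction the island changed little. From ESCs the gap widened at 1298 shores and narrowed at 390, against 10.1% and 3.16% of all matched shores, and from pESCs at 951 and 316, against 7.4% and 2.56%. Where it widened from ESCs the shores changed by a median of 25.2 points and the islands by 0.291 points. Beside islands near 0 a widening of 10 points can come only from the shore. Where it narrowed the islands changed by a median of 31.1 points and the shores by 4.29 points, and 296 of the 390 lay beside islands inside genes. From pESCs the widening shores changed by 23.1 points and their islands by 0.247 points. Without pESC replicate 1 the pESC gap calls numbered 790, and without pESC-PGCLC replicate 1 805, in place of 1267, and the widenings alone 622 without pESC replicate 1. The 390 narrowings from ESCs numbered 748 without ESC replicate 2, 237 without ESC-PGCLC replicate 1 and 213 without ESC-PGCLC replicate 2. The 316 from pESCs numbered 528 without either ESC library and between 156 and 205 without a pESC or pESC-PGCLC library.

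The shore with the largest rise in both inductions was at Kansl2, a subunit of the NSL histone acetyltransferase complex (chromosome 15, 98531651-98533651, over an exon, stretch printed above). It had 9.82% and 2.33% in ESCs and 5.82% and 2.10% in pESCs, 100% in both ESC-PGCLC libraries, and 78.6% and 72.8% in pESC-PGCLCs. It had 83.4% and 85.3% in E9.5 PGCs and 65.0% and 68.3% in E12.5 PGCs. Stem cells and germ cells were fully separated, and ESC-PGCLCs were above both PGC stages. The rise was 93.9 points from ESCs (limma adjusted p = 9.04e-05) and 71.7 points from pESCs (limma adjusted p = 0.000846). The Kansl2 island stayed under 2.17% in all libraries. Levels of exactly 100% can come from few reads, and the depth of this shore is unknown.

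The shore upstream of Srrm2, a splicing factor of nuclear speckles (chromosome 17, 23800817-23802817, annotated as intronic), also rose from low levels. It had 1.19% to 5.73% in stem cells, 79.4% and 81.0% in ESC-PGCLCs, 66.2% and 67.4% in pESC-PGCLCs, 59.8% and 54.9% in E9.5 PGCs and 35.5% and 37.5% in E12.5 PGCs. All 4 PGCLC libraries lay above both PGC stages. The rise was 76.6 points from ESCs (limma adjusted p = 0.000267) and 63.4 points from pESCs. Upstream of Tram2 the shore (chromosome 1, 21079694-21081695) rose by 68.6 points from ESCs. A shore over an exon of Zfp647 (chromosome 15, 76909247-76911247) went from 7.18% and 4.72% in pESCs to 69.1% and 64.2% in pESC-PGCLCs.

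Falls on induction were fewer. Upstream of Selenoi, an ethanolamine phosphotransferase of phospholipid synthesis, the shore (chromosome 5, 30230463-30232463) had 79.1% and 56.7% in ESCs and 20.5% and 15.7% in ESC-PGCLCs, a fall of 49.8 points (limma adjusted p = 0.00394). It had 63.5% and 56.97% in pESCs, 21.1% and 31.3% in pESC-PGCLCs, 13.5% and 16.3% in E9.5 PGCs and 2.75% and 4.60% in E12.5 PGCs, so the stem cell libraries were all above the germ cells. The Lhx9 shore described above fell by 45.3 points from ESCs (limma adjusted p = 0.00123), and so did the Ankhd1 shore, which had 62.8% and 43.8% in ESCs (limma adjusted p = 0.00232). A shore over an exon of Esr1, the oestrogen receptor gene (chromosome 10, 4710269-4712269), had 45.5% and 42.9% in pESCs and 6.10% and 7.09% in pESC-PGCLCs. An intergenic shore on chromosome 5 (67228518-67230518) had 66.3% and 51.5% in pESCs, 15.7% and 18.6% in pESC-PGCLCs and 1.87% to 3.08% in PGCs.

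The islands that gained more than their shores lay mostly inside genes. At Omp, the olfactory marker protein gene (chromosome 7, shore 98143077-98145077), the shore had 42.5% and 29.3% in ESCs and 34.0% and 35.0% in ESC-PGCLCs. Its island went from 24.9% and 8.46% to 80% and 79.2%, and the gap fell by 64.4 points (limma adjusted p = 0.000113). A shore over an exon of Crocc, which encodes a ciliary rootlet protein (chromosome 4, 141041805-141043806), had 71.6% and 66.2% in pESCs and 57.9% and 58.6% in pESC-PGCLCs. Its island went from 4.66% and 4.07% to 61.6% and 54.1%. At Ccdc6 (chromosome 10, 70187003-70189003) the shore, over an exon, had 69.4% and 62.6% in pESCs and 60.8% and 58.3% in pESC-PGCLCs, while its island went from 6.86% and 9.71% to 61.2% and 52.5%. In all 3 the island was below the shore in every stem cell library.

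Whether shores register the missing paternal genome was asked by comparing pESCs with ESCs. The mean shore level differed by 0.109 points, and the exact permutation test gave p = 1.0, since the ESC libraries enclosed the pESC libraries. No shore was called, and no feature of any class (0% of features and 0% of matched gaps), with 122 shores higher and 140 lower at an unadjusted p under 0.05 by limma and a smallest adjusted p of 0.0795. With all 12 libraries in the fit 10 shores were called, all higher in pESCs, and with adjustment over the autosomal shores alone 5 were. Without pESC replicate 1 the count was 24 and without pESC replicate 2 it was 28. Over all shores 55 (0.393%) had pESC means at least 10 points higher and 33 at least 10 points lower, and 12 and 5 differed by at least 20 points.

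Shores of imprinted genes took up most of the rises in pESCs of at least 20 points, but not most of those of at least 10 points. The imprinted genes of the study and of known control regions had 28 shores of 13 genes. Of these 11 were at least 10 points higher in pESCs, out of 55 over all shores. At least 20 points higher were 10, out of 12 over all shores. The 10 belonged to 4 genes. They were all 4 shores of Zrsr1 and 4 of the 8 at Gnas, each of which overlaps the next along the chromosome, and 1 each at Mest and Nap1l5. These genes hold maternally methylated control regions. Since the list was drawn with earlier results known, its count is a description.

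The Mest shore (chromosome 6, 30738499-30740500, over an exon of this paternally expressed gene, stretch printed above) had 7.08% and 5.11% in ESCs and 54.3% and 53.6% in pESCs. One of the Zrsr1 shores (chromosome 11, 22971115-22973115), at a retrogene inside Commd1, had 1.61% and 1.85% in ESCs and 41.4% and 42.0% in pESCs. A Gnas shore (chromosome 2, 174298745-174300745) had 19.7% and 16.6% against 58.5% and 57.4%, and the Nap1l5 shore (chromosome 6, 58904722-58906722) had 24.3% and 26.9% against 51.4% and 53.8%. The pESC libraries were the higher at each of these, between 41.4% and 58.5%. The Grb10 shore (chromosome 11, 12026580-12028581) had 16.7% and 10.4% against 27.4% and 24.4%. The shores of Igf2, Cdkn1c, Kcnq1 and Inpp5f had lower means in pESCs than in ESCs, with differences from -3.47 to -0.754 points. Outside the list, a shore over an exon of Kcnq1ot1, the long RNA of that domain (chromosome 7, 143294312-143296312), had 16.8% and 31.8% in ESCs and 67.0% and 74.1% in pESCs, and was picked out after its values were seen.

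**Figure D5:**
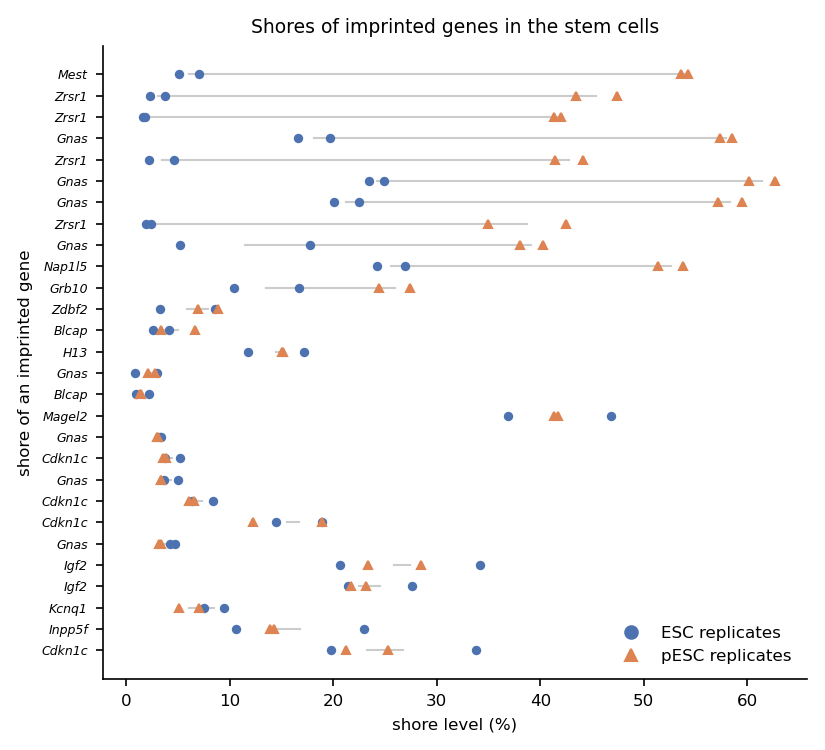
Methylation (%) of the 28 shores of imprinted genes in ESC libraries (circles) and pESC libraries (triangles), 1 row per shore, with a grey line between the group means. At the Mest shore ESCs had 7.08% and 5.11% and pESCs 54.3% and 53.6%. The Gnas shores split between rises of 27.6 to 39.8 points in pESCs and differences close to 0. Those of Igf2 and Cdkn1c lie close to 0 difference.

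At Mest and Zrsr1 the ESC level was the one that stood apart from the other 5 groups. The Mest shore had 54.98% and 54.0% in E9.5 PGCs, 44.0% and 37.3% in E12.5 PGCs, 39.2% and 41.6% in PGCLCs from ESCs, and 48.3% and 39.3% in those from pESCs. The ESC libraries were under all 10 others. The Zrsr1 shore at 22971115 had 49.8% and 50.1% in E9.5 PGCs, 27.5% and 28.3% in E12.5 PGCs, 31.8% and 33.9% in PGCLCs from ESCs, and 37.0% and 37.1% in those from pESCs. Here too only the ESC libraries were under 5%. The difference in induction change between origins was tested as an interaction, which called 1 shore higher and 4 lower (0.0183% of features in each direction). At the Mest shore the induction change in pESCs minus that in ESCs was -44.5 points (limma adjusted p = 0.0376), and at the 3 called Zrsr1 shores it was from -36.6 to -33.8 points (limma adjusted p from 0.00721 to 0.0351). The count of 5 was 3 without either ESC library and 0 without pESC replicate 1, pESC replicate 2, ESC-PGCLC replicate 2, pESC-PGCLC replicate 1 or pESC-PGCLC replicate 2. With 0 calls, 420 to 883 shores had an unadjusted p under 0.05.

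Between the PGCLCs of each origin few shores differed. The mean was 1.39 points lower in pESC-PGCLCs, and 7 shores were higher and 5 lower, against 0.0445% and 0.0503% of features. The count of 12 moved with single libraries. It was 5 without either E9.5 PGC library, 2 without either E12.5 PGC library, 24 without ESC-PGCLC replicate 1, 3 without ESC-PGCLC replicate 2, 1 without pESC-PGCLC replicate 1 and 2 without pESC-PGCLC replicate 2. Centring gave 9 higher and 3 lower, where the medians of the features with a level in all 12 libraries differed by -1.73 points. On untransformed levels 21 were higher and 103 lower.

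Among the shores named for the comparison of the PGCLCs with each other, those at BC030867, Ptprs and Kansl2 set ESC-PGCLCs apart from the other germ cells. The shore at BC030867 (chromosome 11, 102249264-102251265, over an exon) had 8.72% and 5.91% in PGCLCs from ESCs, and 45.4% and 49.0% in those from pESCs, with 67.4% and 73.9% in E9.5 PGCs, 53.5% and 57.8% in E12.5 PGCs and 10.6% to 16.5% in stem cells. The ESC-PGCLC libraries were the lowest of all 12, and the difference was 39.9 points (limma adjusted p = 0.0238). The intronic shore upstream of Ptprs, a receptor tyrosine phosphatase (chromosome 17, 56462513-56464514), had 0% in both PGCLC libraries from ESCs and 35.3% and 29.3% in those from pESCs (limma adjusted p = 0.00642). All other libraries had 26.5% to 50.0% there. The shore upstream of Smyd2, a lysine methyltransferase (chromosome 1, 189922498-189924499), had 5.71% and 4.79% against 35.2% and 32.5%. The BC030867 and Smyd2 calls were lost without either E12.5 PGC library, ESC-PGCLC replicate 2 or either pESC-PGCLC library. Without 1 of these the differences were 38.1 to 41.7 points at BC030867 and 27.2 to 29.98 points at Smyd2. The Ptprs call was lost without ESC-PGCLC replicate 2 (32.3 points) or pESC-PGCLC replicate 1 (29.3 points). Kansl2 was lower in pESC-PGCLCs by 24.3 points. The shores of Kdelr3, a retrieval receptor of the endoplasmic reticulum, and of Zmynd15, a gene of haploid male germ cells, were lower by 22.6 and 19.5 points. Both calls were lost with all 12 libraries in 1 fit (limma adjusted p = 0.776 and 0.392). They were also lost with adjustment over shores alone (limma adjusted p = 0.0852 and 0.0709).

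The 2 sides of an island did not share one level. Of 3122 islands with a shore on each side, both shores were over 50% at 262 and 258 in the E9.5 PGC libraries, and only 1 side was at 686 and 676. At E12.5 the counts were 42 and 49 for both sides and 223 and 233 for one. Across these islands, which share each library, the correlation of the sides was 0.269 to 0.372 (Pearson, n = 3122). At 1752 islands with one shore upstream of the gene start and one in the gene body, the gene-body shore was the higher on average in all 12 libraries, by 0.109 to 1.12 points. This was far under the gap between shore and island.

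Shores with intermediate CpG density had the highest levels. With shores in 4 groups of rising density, the E9.5 means were 20.9%, 24.6%, 26.1% and 17.5%. E12.5 levels were between 0.632 and 0.656 times these. The 1656 shores that overlapped another listed island had 8.70% in E9.5 PGCs against 24.1% in the others. The 1010 shores beside no listed island had 39.4% in E9.5 PGCs and 25% in E12.5 PGCs.

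Shores of gene groups differed widely in level, and a gene's shore is named here for the gene that starts in the island or, failing that, within 5000 bp. Over all shores the median of the group means, which the medians below also are, was 6.69% in E9.5 PGCs and 5.03% in E12.5 PGCs. Of all shores 30% fell, against 49.6% of all features. A call needs means 10 points apart, so the share called depends on the starting level, as in the bins above. Germline genes, which act in meiosis and in the defence against transposons, had 17 shores of 14 genes. Their median was 74.0% at E9.5 and 47.9% at E12.5, and 56.0% in PGCLCs from ESCs, 51.6% in those from pESCs, 30.2% in ESCs and 28.8% in pESCs. 16 of the 17 (94.1%) fell from E9.5 to E12.5. Of all shores at 60% to 80% in E9.5 PGC replicate 1, whatever their gene, 96.8% did. With induction 7 rose from ESCs and 5 from pESCs, where 13.7% and 8.91% of all features rose. Tdrd1, of the piRNA pathway (chromosome 19, 56826522-56828523), had the largest fall, from 75.7% and 72.3% to 39.3% and 32.5%. The exception was Hormad1, of the meiotic chromosome axis (chromosome 3, 95557525-95559525), with 81.6% and 82.2% and then 71.1% and 74.2%, a difference of -9.20 points that turned to 6.79 points on centred levels. The Hormad1 island had 83.0% and 80.9% and then 60.9% and 61.4%.

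Imprinted genes came next, with a median of 52.9% in E9.5 PGCs and 30.3% in E12.5 PGCs over 28 shores, of which 20 (71.4%) fell. Of all shores at 40% to 60% in E9.5 PGC replicate 1, whatever their gene, 90.1% did, and of all features 49.6%. Some of the 28 overlap each other, as at Zrsr1 and Gnas, so they are not separate observations. Cdkn1c, a brake on the cell cycle (chromosome 7, 143457054-143459054), went from 59.2% and 53.7% to 21.1% and 27.4%. The Zdbf2 shore had 0% and 9.86% and then 9.09% and 10.1%, a difference of 4.67 points that did not pass the test and turned to -0.258 points without E9.5 PGC replicate 1.

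Shores of pluripotency genes were mostly low, with medians of 4.39% and 5.87% over 12 shores of 6 genes, of which 2 fell. The shore of Klf2 (chromosome 8, 72320158-72322159), a factor of the naive state, had 1.06% to 1.71% in stem cells, 56.9% and 57.5% in E9.5 PGCs, 34.0% and 36.7% in E12.5 PGCs, 35.6% and 38.8% in PGCLCs from ESCs, and 30.2% and 29.0% in those from pESCs. Stem cells and germ cells were apart by over 20 points. An Esrrb shore had 5.19% and 4.51% and then 9.04% and 6.86%, which did not pass. Of 11 shores of genes of PGC specification 1 fell, at the receptor Cxcr4, which guides PGC migration, from 68.8% and 66.4% to 54.1% and 51.8%, and on centred levels this difference was 1.38 points. At the opposite end a Tfap2c shore changed by 0.459 points. Of 12 shores of DNA methylation genes 3 fell, and these were at Mbd1 and Mbd3, which encode methyl-CpG binding domain proteins, and the dioxygenase gene Tet3. Mbd1 (chromosome 18, 74268512-74270513) went from 66.3% and 64.3% to 22.0% and 24.8%. Shores of the methyltransferases Dnmt1, Dnmt3a and Dnmt3b had group means of at most 6.67%.

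Developmental genes had mostly low shores. Over 247 shores of 77 homeobox and other developmental regulators the median was 3.57% in E9.5 PGCs and 3.16% in E12.5 PGCs, and 6 fell and 1 rose. The fall was largest at Nkx6-3 (chromosome 8, 23155465-23157465), from 72.3% and 74.3% to 34.9% and 34.5%. The shore that rose, near Six3, had 6.90% and 4.00% and then 23.1% and 11.8% (limma adjusted p = 0.0202). The Six3 call was lost without E9.5 PGC replicate 2 (limma adjusted p = 0.0995), without E12.5 PGC replicate 1, where the rise was 6.32 points (limma adjusted p = 0.0931), on untransformed levels (limma adjusted p = 0.0572) and with all 12 libraries (limma adjusted p = 0.247). On induction 25 of these shores fell and 1 rose from ESCs, and 19 fell and 0 rose from pESCs, whereas rises outnumbered falls over all shores. Over all features 13.7% rose and 0.899% fell from ESCs, and 8.91% rose and 0.746% fell from pESCs. Counts of falls over all shores moved with single libraries, as given above, and those of this list were not recomputed that way. Of 32 epiblast and gastrulation gene shores 2 fell, with Mixl1, a primitive streak gene, going from 64.7% and 60.8% to 37.3% and 36.9%. A Sox17 shore changed by 1.13 points and by -0.683 points without E12.5 PGC replicate 1.

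Genes of the somatic cells around germ cells in the gonad were included because a sort may let such cells through. Their 35 shores had medians of 3.09% and 2.57%, and 2 fell. The Nr5a1 shore (chromosome 2, 38712535-38714536), at a gene of the somatic gonad, went from 81.5% and 81.4% to 50.6% and 46.4%. A Wt1 shore had 3.77% and 3.31% and then 3.77% and 7.46%. A part of such cells in the differences above was not tested, and methylation levels do not show their share. Among 17 shores of housekeeping genes 5 fell, and that at Rpl13a, of the ribosome (chromosome 7, 45126516-45128516), went from 58.4% and 57.4% to 26.9% and 27.0%. The Psmb2 shore with the least fall changed by 1.48 points.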

How the data were processed

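Reduced representation bisulfite sequencing was done on 12 libraries. The authors digested DNA with MspI, converted it with bisulfite, aligned reads with Bismark 0.16.3 and Bowtie2 to mm10 (per the submitters' processing notes), and corrected for non-conversion. The deposited values are a fraction from 0 to 1 per annotated feature, methylated over all CpG calls, and no read numbers came with them. The coverage minimum and the definition of a shore are not given in the sources used here, and no interval or floor could be computed.

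Levels were joined over libraries, and shores were matched to islands by touching coordinates. Shore coordinates are printed as deposited. Gene names came from GENCODE M21 on GRCm38; all 14559 listed islands start and end with CG there. limma 3.58.1 in R 4.3.3 was fitted to log2((level + 0.01) / (1 - level + 0.01)), with Benjamini-Hochberg adjustment across every feature of the fit, and gaps were fitted in points. Stem cells were fitted on 4 libraries, the PGC and PGCLC comparisons on 8, and induction with its interaction on 8. Mean levels were compared by an exact permutation test (scipy 1.17.1). Read numbers being absent, the count model planned for counts was not used. This fit was first tested on simulated data. Plots used matplotlib 3.10.9.

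Named shores are, per comparison, up to 3 called with the largest rise and 3 with the largest fall whose replicates did not overlap, the same for gaps, and the extreme members of each gene list between E9.5 and E12.5. 1 gap that the rule names is not reported here. Others are said to be chosen after their values were seen. The shores, gene lists and tests were chosen with earlier results of these data known. Where no source says how replicate cultures or embryos were separated, p-values measure the spread between these libraries. Alternatives were the offset, untransformed levels, centring, all 12 libraries in 1 fit, a replicate block, adjustment over shores alone and leaving out each library.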

Additional observations from a re-analysis of the deposited data

Results flagged for a closer look

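At 5 shores the change on germ cell induction differed between the 2 origins, by the limma interaction of origin and induction. The change in pESCs minus that in ESCs was -35.75 points at the Zrsr1 shore on chromosome 11 from 22971115 (adjusted p = 0.00721), -33.76 points at that from 22972993 (adjusted p = 0.0266) and -36.55 points at that from 22973331 (adjusted p = 0.0351). Each of these 3 shores overlaps the next along the chromosome, so they are not separate observations. At the Mest shore it was -44.45 points (adjusted p = 0.0376). At all 4 the ESC level was lower than in the other 3 groups of the fit. At the Ptprs shore it was 34.39 points (adjusted p = 0.00721), with 0% in both ESC-PGCLC libraries and 29.3% to 39.8% in the other 6. Depth is unknown, and the part of low coverage in the 0% was not tested.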

How the results depend on the processing

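Of 339 alternatives run on the 31 comparison results, 286 kept a count within 1.5 times its value or a mean with the same sign. In 3 of these 286 the balance of higher against lower calls turned, on centring to 2636 higher and 545 lower for ESC-PGCLCs and to 4262 and 1035 for pESC-PGCLCs against E9.5 PGCs, and for the interaction to 4 and 2 without ESC-PGCLC replicate 1. For pESCs against ESCs, 5 shores were called with adjustment over autosomal shores alone and 10 with all 12 libraries in 1 fit. Centring gave 6984 calls from E9.5 to E12.5, and 511 for ESC-PGCLCs and 75 for pESC-PGCLCs against E12.5 PGCs. On induction it gave 7070 from ESCs and 4601 from pESCs. It subtracts a shift of all features, which shores near 0 need not share, and the splits are in the results. With all 12 libraries the counts against E12.5 PGCs were 605 and 59, and adjustment over shores alone gave 243 for pESC-PGCLCs. Between the PGCLCs, an offset of 0.1 gave 100 calls, untransformed levels 124 and adjustment over shores alone 6. The gap of ESC-PGCLCs to E9.5 PGCs gave 654 calls as a difference of log odds and 1137 with all 12 libraries, and that of pESC-PGCLCs 1525 as a difference of log odds. The interaction gave 1 call with an offset of 0.1, 1 on untransformed levels and 12 with all 12 libraries. Except for centring, the cause of these moves was not tested.

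Leaving out 1 library gave 0 to 28 calls for pESCs against ESCs, 13 to 353 for pESC-PGCLCs against E12.5 PGCs, 1 to 24 between PGCLCs, 1014 to 2290 on induction from pESCs, 0 to 6 for the interaction and 790 to 1725 for the gap on induction from pESCs. The mean shore level of pESCs minus ESCs ranged from -1.43 to 1.65 points and the mean gap from -0.998 to 1.25 points. The levels were -0.0364 and -1.43 without pESC replicate 1 and ESC replicate 2, and the gaps -0.103 and -0.998. Calls from E9.5 to E12.5 ranged from 4060 to 4249, and those on induction from ESCs from 1599 to 3262.

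Replicate numbers were checked for pairing. The deviations of same-numbered libraries correlated at -0.114 to 0.557 over 15 pairs of groups and were over 0.1 in 3 of them, at 0.557 between ESCs and pESCs, 0.24 between E9.5 PGCs and ESC-PGCLCs and 0.151 between E9.5 PGCs and pESC-PGCLCs. No source used here says that a number marks a shared culture, litter or day, and the numbers were not taken as pairs. With the replicate number as a block, 3 shores were called between the PGCLCs and 3 for the interaction; the other counts stayed within 1.5 times, with 4231 from E9.5 to E12.5. Under the block BC030867 had an adjusted p of 0.0964 by limma, Smyd2 0.109, Kdelr3 0.129, Zmynd15 0.119, and for the interaction Mest 0.0614 and the Zrsr1 shore from 22973331 0.0747.

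Named shores gave 1354 values under alternatives, of which 141 no longer passed the threshold and 4 turned: Hormad1 to 6.79 and Cxcr4 to 1.38 on centred levels (where Klf2, at an adjusted p of 0.397 by limma, and Mixl1, at 0.0909, also lost their calls), Sox17 to -0.683 without E12.5 PGC replicate 1 (2.94 without replicate 2) and Zdbf2 to -0.258 without E9.5 PGC replicate 1 (9.60 without replicate 2). Leaving out shores that overlap another island, chosen after seeing the data, gave mean levels and gaps of the same sign in all 15 comparisons, such as -8.62 points from E9.5 to E12.5.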
